A study of Mus musculus with 4 samples.

Results

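The genes described here are Klrg1 and 9 further C-type lectin receptor genes shared by killer T cells and natural killer (NK) cells: Klrc1, Klrc2, Klrc3, Klrd1, Klrk1, Klrb1c, Klre1, Klri1 and Klri2. They were picked by symbol, and all 10 were found among the 36464 gene IDs of the deposited tables. The choice followed the treatment difference of Klrg1, so that the differences between treatments below are a description and carry no test. RNA was sequenced from cells enriched for CD8+ T cells, out of percutaneous tumour grafts in wild type male C57BL/6 mice, whose age is not given in the sources used here. Mice received either control IgG or an antibody to SIGLEC15, an immune lectin, into the peritoneum for 2 weeks, with 6 mice per treatment and collection on day 19. Cell pellets of 3 mice were mixed for each library, which left 2 libraries per treatment, and the grafted tumour line is not given in the labels. The study asks how CD8+ T cells in the tumour change under SIGLEC15 blockade.

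These receptors are type II membrane proteins that set how readily a lymphocyte kills. KLRG1 binds cadherins on other cells, carries an inhibitory tail and marks effector T cells late in their differentiation, but NK cells, regulatory T cells and group 2 innate lymphoid cells also display it. CD94, the product of Klrd1, pairs with an NKG2 chain: NKG2A (Klrc1) gives an inhibitory receptor, NKG2C (Klrc2) and NKG2E (Klrc3) give activating ones, and their ligand is the MHC class Ib molecule Qa-1. NKG2D (Klrk1) is an activating receptor for stress-induced ligands and signals through the adaptor DAP10. The product of Klre1 pairs with that of Klri1 or Klri2, and Klrb1c encodes NK1.1, the antigen by which NK cells are recognised in C57BL/6 mice.

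Values are in RPKM, reads scaled to exon length and to the reads counted in the library. Where 4 values stand in a row, they follow the order IgG 1, IgG 2, anti-SIGLEC15 1 and anti-SIGLEC15 2, each the replicate of that number. Libraries held between 14854802 and 16026197 reads counted in genes. Cd8a, a chain of the CD8 coreceptor and the T cell reference, measured 115, 351, 290 and 315 RPKM. The albumin gene Alb, a marker of hepatocytes and hepatoma cells, was above Cd8a in every library, at 2795, 556, 1089 and 625 RPKM. IgG replicate 1 stood apart. Its T cell identity genes, 15 genes such as Cd3e and Trac, summed to 1410 RPKM, against 4378 to 4897 RPKM in the other libraries. Genes of hepatocytes and hepatoma cells summed to 5879 RPKM there, against 1190 to 2514 RPKM elsewhere, and myeloid genes to 879 RPKM, against 104 to 423 RPKM. In bulk RNA, fewer cells of a type and less RNA per cell cannot be told apart.

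Klrg1 (ENSMUSG00000030114, minus strand of chromosome 6, 122270596 to 122282882 in GRCm38) lay higher in both anti-SIGLEC15 libraries. It measured 2.38, 5.15, 13.6 and 12.3 RPKM, from 54, 113, 302 and 259 reads. The treatments did not overlap, and the exact 95% Poisson intervals, which cover counting error only, reached up to 6.19 RPKM with IgG and began at 10.9 RPKM or above with anti-SIGLEC15. The mean was 3.77 ± 1.96 RPKM for IgG (SD, n = 2) and 13 ± 0.902 RPKM for anti-SIGLEC15 (SD, n = 2). The difference on the log2(RPKM + 1) scale, anti-SIGLEC15 minus IgG, was 1.61 (SE 0.37), which was rank 40 from the top among 12484 tested genes. Klrg1 was lowest in the library that was low in T cell genes, and without IgG replicate 1 the difference was 1.18. Red cell genes also lay apart: 5 of 5, among them Hbb-bs and Hba-a1, were lower in both anti-SIGLEC15 libraries. Among all tested genes 6.02% were lower by this count. Of the 5, Alas2 (1.35, 3.46, 0.239 and 0.056 RPKM) reached 1 RPKM, the filter for testing, only in the IgG libraries. None was at 0, and the 5 red cell genes summed to 691, 1929, 113 and 19.9 RPKM. Their part in the Klrg1 difference was not tested.

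The rest of the genes sit together some distance along the same chromosome, Klrb1c at 128778485 to 128789215 and the others between the start of Klre1 at 129577905 and the end of Klri2 at 129740484 in GRCm38, in the NK gene complex. No gene of the genome passed the test: limma on log2(RPKM + 1), at an adjusted p (Benjamini-Hochberg) under 0.05, called 0 of 12484 (0%), with 146 at an unadjusted p under 0.05, and limma-voom on recovered reads called 0 of 15061, with 90 at an unadjusted p under 0.05. Leaving out IgG replicate 1 gave 135 calls by limma, and leaving out IgG replicate 2 gave 2251. Of the 10 receptor genes, 8 passed the filter of at least 1 RPKM in at least 2 libraries, and Klrb1c and Klri1 did not. In both anti-SIGLEC15 libraries 4 of the 10 lay higher than in both IgG libraries, namely Klrg1, Klrc2, Klrb1c and Klri1, and 0 lay lower. The last 2 are near 0, with at most 34 reads in a library, and among the 8 that passed the filter the count was 2. The count over all 10 genes, 4 with every library, was 10 without IgG replicate 2 and 7 without anti-SIGLEC15 replicate 1. Among the tested genes as a whole, 12.1% were higher and 6.02% were lower by the same count, and since the genes were chosen by this contrast nothing is read from the comparison. Each of the 10 had its lowest value, or a tie at 0, in IgG replicate 1.

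**Figure D1:**
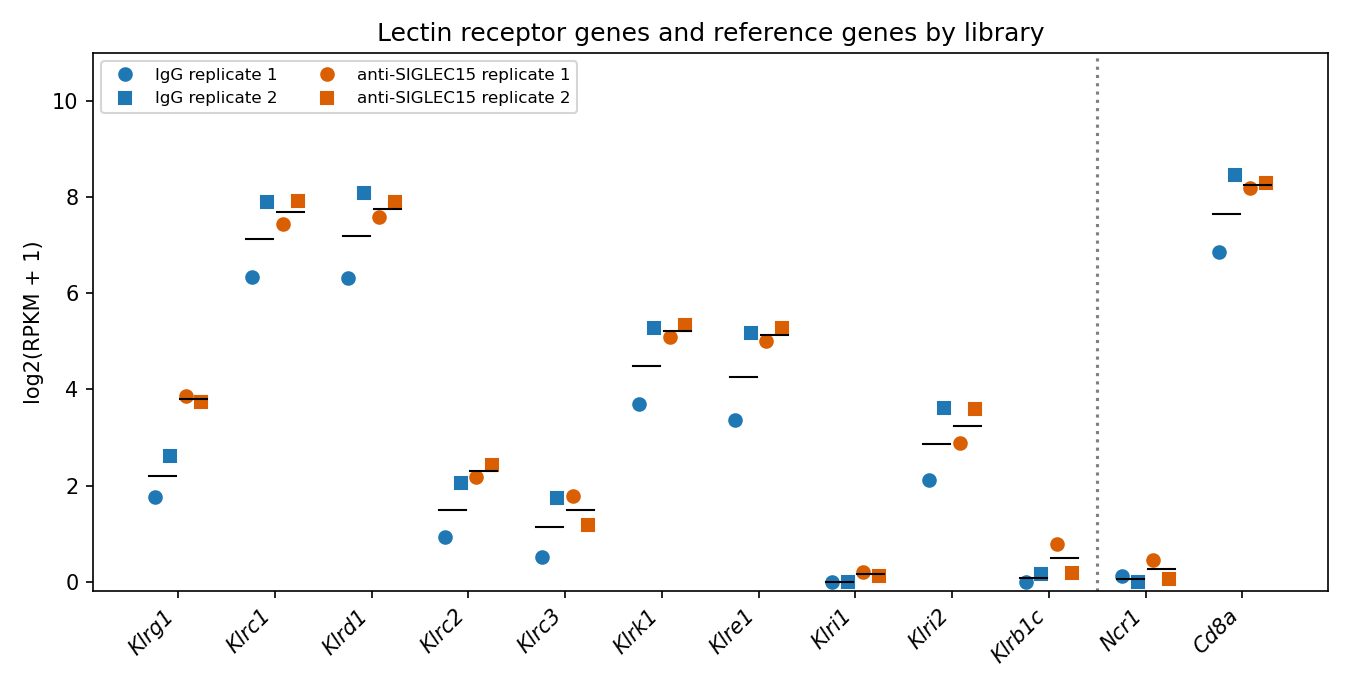
Expression of the 10 lectin receptor genes and the reference genes Ncr1 and Cd8a (right of the dotted line) as log2(RPKM + 1). Each point is a library, blue for IgG and orange for anti-SIGLEC15, circles for replicate 1 and squares for replicate 2, and each short line is the mean of 2 libraries. Klrg1 separates by treatment, whereas Klrc1, Klrd1, Klrk1, Klre1 and Klri2 are, like Cd8a, lowest in IgG replicate 1 and overlap between treatments.

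The inhibitory signal of such receptors runs through an immunoreceptor tyrosine-based inhibitory motif (ITIM) in the tail, which in these proteins lies at the amino-terminal end. The first 60 codons of the longest coding sequence of each gene in GENCODE M21 were searched, on the coding strand and in frame, for a codon of isoleucine, valine, leucine or serine, any codon, a tyrosine codon, any 2 codons, and a codon of leucine or valine. Over 21469 genes 5.67% held a match. Matches lay in Klrg1 (tyrosine at codon 7), Klrc1 (codon 8), Klri1 (codons 18 and 49) and Klrb1c (codon 55 of its longest model). The other 6 genes held none, among them the activating Klrc2, Klrc3 and Klrk1. A match is a description of letters: NK1.1, which has one, is known as an activating receptor. The stretches of Klrg1 (chr6:122282761-122282811, minus strand), Klrc1 (chr6:129678857-129678910, minus strand), the first of Klri1 (chr6:129717039-129717098, minus strand) and that of Klrb1c (chr6:128788431-128788490, minus strand) are shown, in GRCm38 and 5′ to 3′, because the first 3 belong to receptors known as inhibitory and the last does not. Capitals mark the matched codons.
Klrg1: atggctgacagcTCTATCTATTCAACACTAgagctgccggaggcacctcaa
Klrc1: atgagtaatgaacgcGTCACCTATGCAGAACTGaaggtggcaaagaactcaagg
Klri1: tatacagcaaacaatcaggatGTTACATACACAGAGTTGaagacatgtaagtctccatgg
Klrb1c: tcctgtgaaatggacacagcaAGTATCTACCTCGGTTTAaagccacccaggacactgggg
Of these 4 transcripts, Klrc1 was abundant, Klrg1 was low, Klrb1c was near 0, and Klri1 was not detectable at this depth.

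The CD94/NKG2 receptor genes were the most abundant of the set. Klrd1 measured 78.3, 269, 192 and 239 RPKM. Klrc1 measured 80.4, 238, 172 and 243 RPKM. IgG replicate 2 stood above both anti-SIGLEC15 libraries for Klrd1 and above one of them for Klrc1, so that the treatments overlapped for both genes. The log2 difference was 0.56 for each (SE 0.61 for Klrd1 and 0.56 for Klrc1), and it was -0.33 for Klrd1 and -0.22 for Klrc1 without IgG replicate 1, but 1.44 and 1.33 without IgG replicate 2. The ratio of Klrd1 to the sum of Klrc1, Klrc2 and Klrc3 stayed between 0.958 and 1.10 in all 4 libraries.

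In RPKM, the NKG2A gene made up nearly all of the NKG2A, C and E transcript. The share of Klrc1 in the summed RPKM of Klrc1, Klrc2 and Klrc3 was 98.4% and 97.7% with IgG and 96.7% and 97.7% with anti-SIGLEC15. Klrc2, the activating partner, measured 0.891, 3.17, 3.51 and 4.39 RPKM, and its log2 difference was 0.81 (SE 0.46). Both anti-SIGLEC15 libraries lay above both IgG libraries for Klrc2, though anti-SIGLEC15 replicate 1 passed IgG replicate 2 by little. Klrc1 over Klrc2 was 90.2 and 75.1 with IgG and 49.0 and 55.3 with anti-SIGLEC15. Share and ratio depend on the exon length behind the RPKM, 1984 bases for Klrc1 and 5812 for Klrc2. In reads, Klrc1 had 2557, 7334, 5351 and 7156, and Klrc2 had 83, 286, 320 and 379. Klrc3 measured 0.424, 2.36, 2.42 and 1.28 RPKM, from 5, 27, 28 and 14 reads, and the treatments overlapped.

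Klrc1, Klrc2 and Klrc3 are near copies, so that reads could be split between them. Their coding sequences were identical at 82.8% of 717 aligned bases for Klrc1 and Klrc2, 85.3% of 666 for Klrc1 and Klrc3, and 94.9% of 666 for Klrc2 and Klrc3. Klrc1 and Klrc2 shared an identical run of 103 bases. The last 60 coding bases before the stop codon, shown because reads from this stretch cannot be assigned between Klrc1 and Klrc2, differed at 0 positions between these genes and at 1 position from Klrc3, which is in capitals. They lie at chr6:129674862-129674921 for Klrc1, chr6:129656374-129656433 for Klrc2 and chr6:129639088-129639147 for Klrc3, all on the minus strand of GRCm38.
Klrc1: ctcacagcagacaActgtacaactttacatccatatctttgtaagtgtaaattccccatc
Klrc2: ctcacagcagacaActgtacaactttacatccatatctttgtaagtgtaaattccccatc
Klrc3: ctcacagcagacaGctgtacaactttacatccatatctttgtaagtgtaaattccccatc
Klrc1 had between 49.0 and 90.2 times the RPKM of Klrc2, and the part of shared reads in the Klrc2 and Klrc3 values was not tested. Klri1 and Klri2 were identical at 78.2% of 742 aligned bases. Among the other 41 pairs of genes in the set, 0 shared a stretch of 50 coding bases.

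Klrk1, the NKG2D gene, measured 12.0, 37.9, 33.1 and 39.3 RPKM. The treatments overlapped, since IgG replicate 2 lay between the anti-SIGLEC15 libraries. The log2 difference was 0.72 (SE 0.57), with -0.07 without IgG replicate 1 and 1.51 without IgG replicate 2. Hcst, which encodes the DAP10 adaptor of NKG2D, measured 33.0, 107, 99.5 and 109 RPKM, and the ratio of Klrk1 to Hcst stayed between 0.333 and 0.363. The length behind the RPKM of Klrk1 is the union of all its annotated exons, 7183 bases, of which the longest coding sequence takes 699, and for Klrc2 it is 5812 bases, of which coding sequence takes 717. Levels per length are lower the more of such a union goes unused.

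Klre1 measured 9.25, 35.2, 31.3 and 37.6 RPKM, with a log2 difference of 0.87 (SE 0.63) that became -0.04 without IgG replicate 1 and 1.79 without IgG replicate 2. Klri2, its activating partner, measured 3.32, 11.2, 6.41 and 11 RPKM, with a log2 difference of 0.37 (SE 0.58) that ran from -0.38 to 1.13 without these same libraries, and the treatments overlapped for both genes. Klri1, the inhibitory partner, had 0 reads in both IgG libraries and 2 and 1 reads in the anti-SIGLEC15 libraries. A count of 3 reads would be 0.223 and 0.231 RPKM in the IgG libraries, and expression of Klri1 was not detectable at this depth. Transcript of Klre1 was thus accompanied by transcript of Klri2 and hardly any of Klri1, and protein was not measured.

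Klrb1c, the NK1.1 gene, measured 0, 0.109, 0.732 and 0.136 RPKM, from 0, 5, 34 and 6 reads. Only anti-SIGLEC15 replicate 1 stood clear of the others, with a 95% Poisson interval of 0.507 to 1.02 RPKM. In IgG replicate 1, with 0 reads, a count of 3 reads would be 0.0632 RPKM, and the 95% Poisson interval reached 0.0777 RPKM. Of the 2961 exon bases of Klrb1c, 413 also belong to another annotated gene, so that reads there could belong to either. Ncr1, which encodes the activating receptor NKp46 and serves as the NK reference, had 2, 0, 9 and 1 reads or 0.0810, 0, 0.372 and 0.0437 RPKM. It too was highest in anti-SIGLEC15 replicate 1.

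In order of mean RPKM over the 4 libraries the genes ran Klrd1 (194), Klrc1 (183), Klrk1 (30.6), Klre1 (28.3), Klrg1 (8.37), Klri2 (7.98), Klrc2 (2.99), Klrc3 (1.62), Klrb1c (0.244) and Klri1 (0.0581). Klrd1 exceeded Klrc1 in 2 of 4 libraries, so these neighbours did not differ beyond their spread. Klrg1 exceeded Klri2 in 2 of 4 libraries, the anti-SIGLEC15 ones. The other neighbours kept their order in all 4 libraries, except that Klrb1c and Klri1, tied at 0 in IgG replicate 1, kept it in 3.

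Relative to Cd8a of the same library, Klrg1 remained apart by treatment, while Klrd1 and Klrc1 overlapped. Klrg1 stood at 2.07% and 1.47% of Cd8a with IgG and at 4.69% and 3.91% with anti-SIGLEC15. The treatments did not overlap, and the difference of mean log2 ratios was 1.30 (SD between replicates 0.28), or 2.46-fold. These ratios carry no pseudocount, so 1.30 is not on the scale of the 1.61 given above. With a pseudocount of 1, as used there, the relative difference of Klrg1 was 1.03. Klrd1 stood at 68.2% and 76.4% of Cd8a with IgG and at 66.0% and 75.7% with anti-SIGLEC15, with a difference of -0.03 (SD 0.13). Klrc1 stood at 70.0%, 67.8%, 59.2% and 77%, and Klri2 at 2.89%, 3.19%, 2.21% and 3.48%, and the treatments overlapped for both.

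Klrk1 and Klre1 lay slightly higher relative to Cd8a in both anti-SIGLEC15 libraries. Klrk1 stood at 10.4% and 10.8% with IgG and at 11.4% and 12.5% with anti-SIGLEC15, a log2 difference of 0.17. Klre1 stood at 8.05% and 10% against 10.8% and 11.9%, a log2 difference of 0.34. For Klrc2 the shares were 0.776% and 0.903% against 1.21% and 1.39%, a log2 difference of 0.63. Of the 8 genes that passed the filter, 4 lay higher relative to Cd8a in both anti-SIGLEC15 libraries and 0 lay lower. With Klrb1c and Klri1, which are near 0, the count was 6 of 10. Among the tested genes as a whole, 4.09% were higher and 5.61% lower, and nothing is read from this comparison either.

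**Figure D2:**
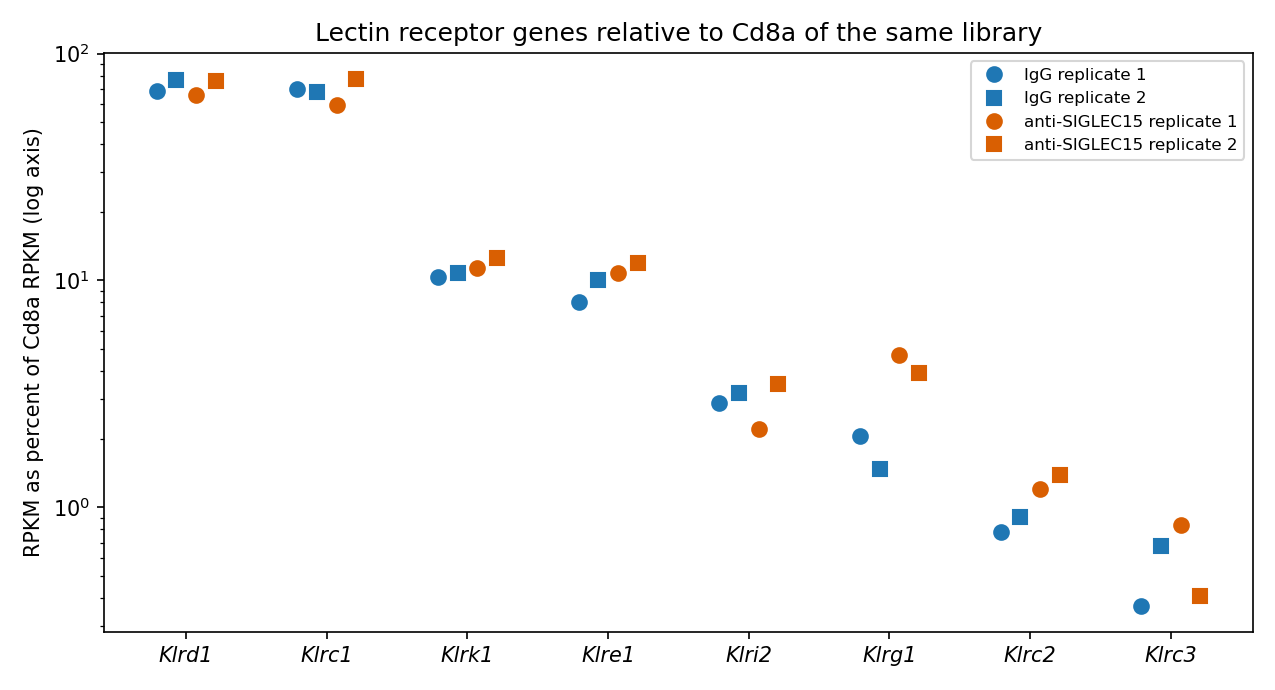
RPKM of 8 lectin receptor genes as a percentage of Cd8a RPKM in the same library, on a log axis. Each point is a library, blue for IgG and orange for anti-SIGLEC15, circles for replicate 1 and squares for replicate 2. Klrd1 stayed between 66.0% and 76.4% in all libraries, while Klrg1 was at 2.07% and 1.47% with IgG and at 4.69% and 3.91% with anti-SIGLEC15.

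The difference of Klrg1 stayed positive with each library left out in turn, between 1.18 and 2.04, and was 1.03 (SE 0.84) after scaling by the T cell identity genes, where the SE was close to the value itself. After that scaling 5 of the 10 genes were higher in both anti-SIGLEC15 libraries. Among the tested genes 3.08% were higher and 10.1% lower. The 10 include Klrb1c and Klri1, which are near 0 and did not pass the filter behind these shares. Since the genes were chosen by this contrast, nothing is read from the comparison. The other 7 tested genes had smaller differences in every one of these settings. Without IgG replicate 1, Klrc2 stayed positive at 0.24, and Klrc1, Klrc3, Klrd1, Klrk1, Klre1 and Klri2 lay between -0.38 and -0.04.

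**Figure D3:**
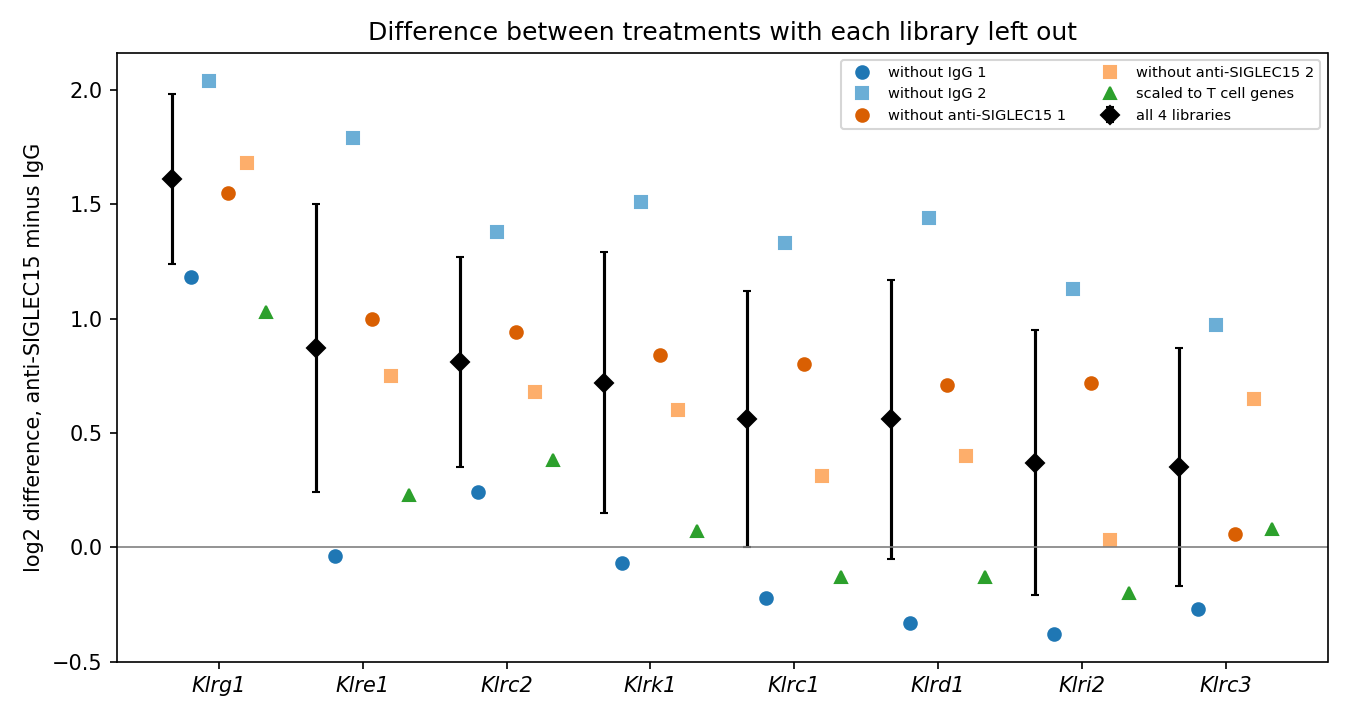
Log2 difference (anti-SIGLEC15 minus IgG, of log2(RPKM + 1)) for the 8 tested lectin receptor genes with all 4 libraries (black diamonds, bars are SE), with each library left out, and with scaling to T cell identity genes (green triangles). Klrg1 lay above 0 in all settings shown, at 1.03 to 2.04, and the blue circles, without IgG replicate 1, put 6 of the other genes below 0.

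Profiles over the 4 libraries were compared with that of Klrg1 by Euclidean distance of centred log2(RPKM + 1). The 6114 candidates had a mean of at least 5 RPKM and a standard symbol. Predicted genes, pseudogenes, and T cell receptor and immunoglobulin genes were left out. Tcrg-C2 (46.0, 133, 225 and 236 RPKM) was thus not ranked, although its profile resembles that of Klrg1. Nearest among the candidates were Ccr2 (distance 0.392), Gzmk (0.449), Cd5 (0.499), Snord118 (0.532) and Rnu12 (0.573). Ccr2, a chemokine receptor gene, measured 1.88, 5.41, 9.38 and 10.1 RPKM, and Gzmk, a granzyme gene, 40.9, 112, 184 and 182 RPKM. Klrd1 was at a distance of 1.275 from Klrg1 and at rank 706. Nearest to Klrd1 were Itm2a (0.045), Tigit (0.096), Cd96 (0.110), Prkch (0.113) and Syt11 (0.132), with Cd8a at rank 18, Klrc1 at rank 21 and Klrk1 at rank 26. Tigit, an inhibitory receptor gene of T and NK cells, measured 92.5, 312, 235 and 302 RPKM. With 4 libraries many genes share a profile, and these distances are a description.

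Of 13 tested adaptor and signalling genes through which the receptors act, 3 lay higher in both anti-SIGLEC15 libraries (Fyn, Grb2 and Pik3r1) and 0 lower, beside 12.1% and 6.02% of all tested genes. Grb2 (29.6, 42.1, 42.4 and 46.1 RPKM) and Pik3r1 (2.74, 6.38, 6.75 and 6.53 RPKM) passed IgG replicate 2 by little. Relative to Cd8a both overlapped, while 3 genes were higher (Hcst, Lck and Fyn) and 0 lower, beside 4.09% and 5.61%. The median log2 difference was 0.54, where that of all tested genes was 0.02, that of the T cell identity genes 0.79 and the difference of Cd8a 0.59. Tyrobp, which encodes the adaptor DAP12 of NKG2C and of the Klri2 receptor, measured 58.2, 5.32, 18.7 and 41.3 RPKM, and Fcer1g 30.1, 10.7, 14.2 and 25.3 RPKM. Both were lowest in IgG replicate 2. The 12 myeloid markers, none at 0 in all libraries, summed to 879, 104, 267 and 423 RPKM, most of it from S100a9 (579, 46.7, 149 and 245 RPKM), while Itgax (1.55, 3.14, 12.2 and 4.05 RPKM) was lowest in IgG replicate 1. The part of myeloid cells in the adaptor values was not tested. Among the phosphatases that ITIMs recruit, Ptpn6 (SHP-1) measured 24.1, 51.8, 53.1 and 52.1 RPKM and Inpp5d (SHIP-1) 3.92, 9.13, 11.5 and 10.9 RPKM, both higher in both anti-SIGLEC15 libraries. Ptpn11 (SHP-2) measured 8.93, 12.6, 11.2 and 9.79 RPKM and overlapped.

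Ligands were measured in the same RNA. H2-T23, the Qa-1 gene, measured 73.7, 96.9, 94.7 and 101 RPKM, and H2-D1, whose leader peptide Qa-1 presents to CD94/NKG2, 669, 872, 863 and 1016 RPKM. The cadherin genes that encode KLRG1 ligands were low: Cdh1 (E-cadherin) measured 0.368, 1.54, 0.933 and 1.84 RPKM, and Cdh2 and Cdh4 stayed under 1 RPKM in all libraries. Of the NKG2D ligand genes, H60b measured 0.103, 0.903, 0.84 and 1.39 RPKM, Ulbp1, Raet1d and Raet1e stayed under 1 RPKM, and H60c had a value of 0 throughout. Of 15 ligand genes listed, 11 were found and 4 tested, with a median log2 difference of 0.25. Of these 4, 0 lay apart by treatment, beside 12.1% higher and 6.02% lower of all tested genes. With so few genes nothing is read from this count.

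Among transcription factor genes that govern effector fate, Tbx21, the T-bet gene, a driver of KLRG1-positive effector cells, measured 12.2, 46.3, 41.0 and 46.6 RPKM, and Eomes 5.11, 22.6, 21.8 and 18.2 RPKM, both with IgG replicate 1 as the low library. Zeb2, which acts with T-bet in terminal effector cells, measured 0.673, 1.12, 0.974 and 1.91 RPKM. In RPKM the treatments overlapped for all 3 genes. Relative to Cd8a, Tbx21 stood at 10.6% and 13.2% with IgG and at 14.1% and 14.8% with anti-SIGLEC15, while Eomes and Zeb2 overlapped. Of 14 tested regulators, 1 lay higher in both anti-SIGLEC15 libraries (Stat4 at 4.63, 10.9, 12.1 and 19.6 RPKM) and 0 lower. That is a share under the 12.1% of all tested genes for the higher side, with a median log2 difference of 0.32. Relative to Cd8a, 2 were higher (Tbx21 and Stat4) and 1 lower (Bhlhe40), beside 4.09% and 5.61% of all tested genes.

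The next lists hold genes that go with KLRG1 on terminal effector cells and genes of the contrasting memory precursor cells, and their counts stand beside 12.1% higher and 6.02% lower of all tested genes, or 4.09% and 5.61% relative to Cd8a. Of 10 tested terminal effector genes, 4 lay higher in both anti-SIGLEC15 libraries (S1pr1, Itgb1, Ly6c2 and Fasl) and 0 lower, with a median of 0.75. Itgb1 counts among these at 80.5, 80.7, 80.7 and 85.1 RPKM, a difference of a few percent. Relative to Cd8a, 4 were higher (Cx3cr1, S1pr1, Itga4 and Fasl) and 1 lower, the perforin gene Prf1. Cx3cr1, a chemokine receptor gene of such cells, measured 1.69, 5.48, 4.6 and 7.37 RPKM and overlapped, and S1pr5 stayed under 1 RPKM in all libraries. Of 9 tested memory precursor genes, 2 lay higher, Il7r (1.83, 4.84, 8.78 and 6.03 RPKM) and Cxcr3 (1.26, 6.89, 20.2 and 13.2 RPKM), and 0 lower, with a median of 0.53. Relative to Cd8a, 3 were higher (Il7r, Cd27 and Cxcr3) and 1 lower (Ccr7). The T cell identity genes had a median of 0.79 over 15 tested members, with 2 higher in both anti-SIGLEC15 libraries (Trbc2 and Cd5) and 0 lower. Relative to Cd8a, 8 of the 15 were higher and 2 lower (Cd247 and Thy1).

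**Figure D4:**
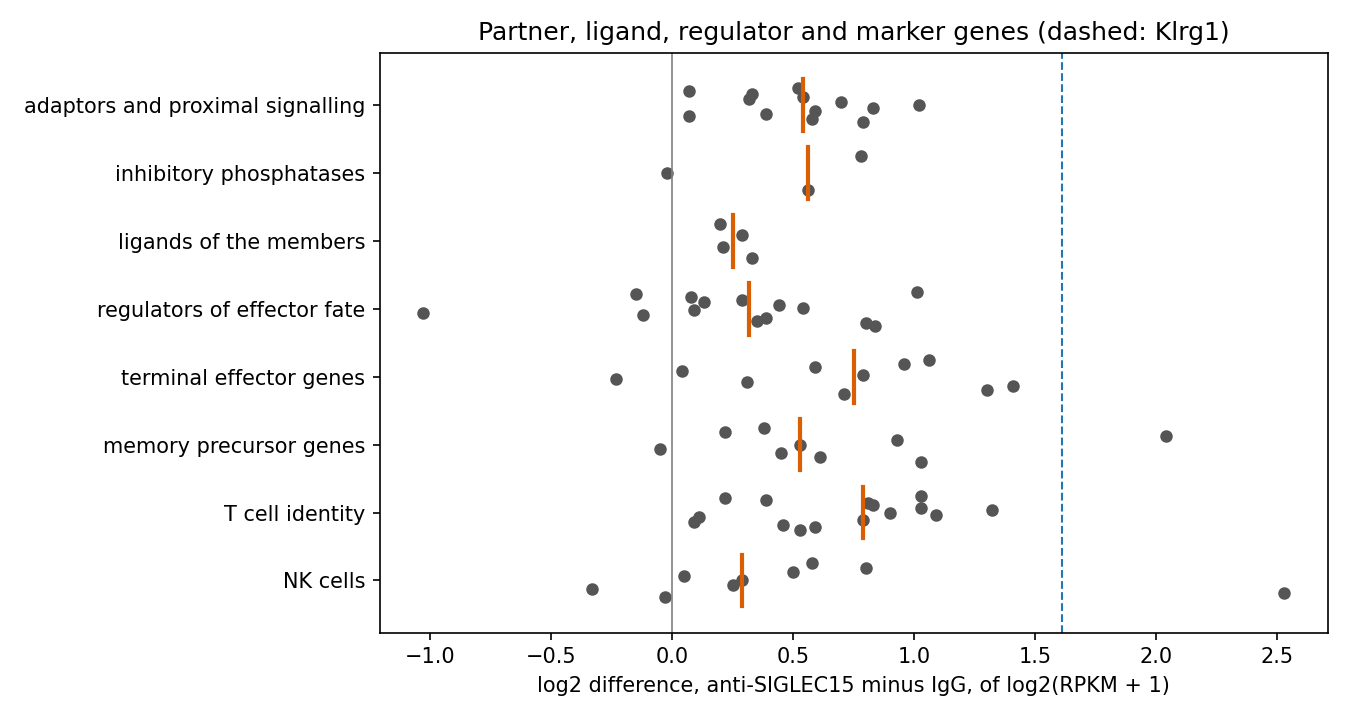
Log2 difference (anti-SIGLEC15 minus IgG, of log2(RPKM + 1)) of each tested gene in 8 lists, 1 point per gene, with the median of each list as an orange bar and the value of Klrg1, 1.61, as a dashed line. The medians lie between 0.25 and 0.79, and Cxcr3 at 2.04 and the NK cell marker Klra7 at 2.53 are the genes beyond the value of Klrg1.

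Other cell types that carry these receptors were sought by their markers. Of 22 NK cell markers listed, 21 were found, 9 passed the filter and 9 stayed under 1 RPKM in all libraries. Their sum was 98.0 and 66.5 RPKM with IgG and 80.1 and 124 RPKM with anti-SIGLEC15, much of it from genes that T or myeloid cells also express (Eomes, Tyrobp and Fcgr3) and, in anti-SIGLEC15 replicate 2, from Klra7 at 32.5 RPKM. The defining gene Ncr1 was at or near 0 in 3 libraries and had 9 reads in anti-SIGLEC15 replicate 1. Klra3 measured 1.01, 12.5, 7.1 and 2.23 RPKM and was highest in IgG replicate 2, as was Klrd1, and Klra7 was highest in anti-SIGLEC15 replicate 2, as was Klrc1. The part of NK cells in the receptor values was not tested. For regulatory T cells, Foxp3 measured 0.177, 0.451, 0.724 and 0.118 RPKM. The 6 genes of CD4 and regulatory T cells summed to 40.5 and 121 RPKM with IgG and to 92.5 and 106 RPKM with anti-SIGLEC15, most of it from Ctla4 (33.0, 104, 74.8 and 89.1 RPKM), which activated CD8+ T cells also express.

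Group 2 innate lymphoid cells, which also display KLRG1, were represented by 8 markers. The receptor gene Il1rl1 measured 0.272, 0.916, 0.841 and 0.625 RPKM, and the cytokine gene Il5 was at 0 in 3 libraries and 0.0438 RPKM in anti-SIGLEC15 replicate 2. Il13 lay higher in both anti-SIGLEC15 libraries (0.362, 0.428, 1.32 and 1.17 RPKM), and Areg lower (36.9 and 24.8 RPKM with IgG, then 18.7 RPKM or less). That is 1 higher and 1 lower of 4 tested markers, beside 12.1% and 6.02% of all tested genes. Il13 rests on 7, 8, 25 and 21 reads and passed the filter only through the anti-SIGLEC15 libraries, where it is high. Nothing is read from this count. The list summed to 44.5 and 45.7 RPKM with IgG and to 35.1 and 34.1 RPKM with anti-SIGLEC15. Of 7 mast cell markers, 5 stayed under 1 RPKM in all libraries, Fcer1a and Ms4a2 among them at 0 throughout. The list summed to 12.8, 3.91, 6.07 and 10.9 RPKM, most of it from Hdc in 3 libraries and from Kit and Hdc in IgG replicate 2. Of 9 markers of gamma delta and innate-like T cells, 4 were tested. Tcrg-C2 (46.0, 133, 225 and 236 RPKM) lay higher in both anti-SIGLEC15 libraries, also relative to Cd8a. This was 1 higher and 0 lower, beside 12.1% and 6.02% of all tested genes. Tcrg-C1 (2.63, 13.5, 7.17 and 2.91 RPKM) overlapped, and Trdc stayed under 1 RPKM. The part of such cells in the receptor values was not tested.

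Since several of these genes moved with Cd8a, their promoters were searched for the letters bound by RUNX factors (TGTGGT, on both strands), which include the CD8 lineage factor Runx3, and by T-box factors (TCACACC, on both strands), which include T-bet and Eomes. The motifs can overlap by 3 bases and were counted apart. RefSeq promoters of GRCm38.p6 (250 bases before the start of the RefSeq entry) were matched for 7 of the 10 genes: Klrc1, Klrc2, Klrc3, Klrk1, Klrb1c, Klre1 and Klri1. By the gene ends of GENCODE M21, the stretches of Klre1 and Klrb1c lie inside the gene, and those of Klrc2 and Klrc3 partly inside. For these genes the letters searched are thus not all upstream of the annotated gene. The RUNX letters occurred in 6 of these 7, in all but Klri1, and in 14.2% of 27025 promoters of the same length. Those of Klrc2 and Klrc3 are copies, identical at 98.6% of 209 aligned bases, and are not independent. The T-box letters occurred in 0 of the 7 and in 3.31% of all promoters. The promoters of Klrc1 (chr6:129678974-129679223, minus strand), Klrk1 (chr6:129623865-129624114, minus strand) and Klre1 (chr6:129577963-129578212, plus strand) are shown because these are the 3 most abundant genes that have an entry. Capitals mark the RUNX letters or their reverse complement, and a match is not evidence of binding.
Klrc1: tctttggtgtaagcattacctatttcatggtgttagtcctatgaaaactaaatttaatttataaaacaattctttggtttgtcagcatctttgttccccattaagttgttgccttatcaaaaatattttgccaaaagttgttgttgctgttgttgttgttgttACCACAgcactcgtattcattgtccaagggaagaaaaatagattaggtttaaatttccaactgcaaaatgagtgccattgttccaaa
Klrk1: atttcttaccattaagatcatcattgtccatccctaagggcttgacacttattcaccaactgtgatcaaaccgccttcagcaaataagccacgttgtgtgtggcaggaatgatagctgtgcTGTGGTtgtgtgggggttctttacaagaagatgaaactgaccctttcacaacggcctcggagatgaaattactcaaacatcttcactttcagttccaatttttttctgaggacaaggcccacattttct
Klre1: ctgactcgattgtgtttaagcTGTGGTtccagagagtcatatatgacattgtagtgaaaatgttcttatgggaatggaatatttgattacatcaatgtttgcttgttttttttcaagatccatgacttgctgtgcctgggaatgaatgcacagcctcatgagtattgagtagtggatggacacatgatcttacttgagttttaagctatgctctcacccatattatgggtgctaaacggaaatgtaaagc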

How the data were processed

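Per the labels' protocols, RNA taken up on oligo-coated beads was read on a DNBSEQ-G50. The deposited files give 1 value per gene and library, which the authors did not name and which is taken as RPKM: multiplied by GENCODE M21 exon length, 98.92% to 98.97% of values under 1000 reads fell on whole reads (tolerance 0.02), which gave the read numbers. Per the submitters' processing notes, GRCm38 (mm10) was used. Aligner and counter: not given in the sources used here. Symbols came from GENCODE M21, with 78 IDs unmatched.

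Libraries were grouped by title. Each mixed 3 pellets, so the SD describes the spread between pools. limma with trend and robust shrinkage was fitted to log2(RPKM + 1) for genes that reached 1 RPKM in 2 or more libraries. The fit was also run on simulated reads with known changes. These had the same dispersion for all genes and no difference in cell mixture between libraries, so that run does not show how the fit performs here. The members and lists were chosen with earlier results of these data known. Named genes were the 10 members, Ncr1, Cd8a, genes of the partner, ligand, regulator and marker lists, and the 5 nearest in profile to Klrg1 and to Klrd1; single genes within lists were picked by role. Relative levels used log2(RPKM/Cd8a). Alternatives were 3 scalings, a pseudocount of 0.1, other filters, limma-voom on reads (at least 10), a replicate block, each library left out and other reference genes. Software: limma 3.58.1 in R 4.3.3, and scipy 1.17.1, numpy 2.4.6, pandas 2.3.3 and matplotlib 3.10.9 in Python 3.11.15.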

Additional observations from a re-analysis of the deposited data

How the results depend on the processing

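The log2 difference of Klrg1 was 1.61 and lay between 1.58 and 1.88 under the other scalings, filters, pseudocount and limma-voom, except that it was 1.03 with libraries scaled to the T cell identity genes, a scaling that moved the median of all tested genes from 0.02 to -0.57. By library order alone, 3.08% of tested genes were then higher and 10.1% lower with anti-SIGLEC15, against 12.1% and 6.02% without it. With single libraries left out, the difference of Klrg1 ran from 1.18 to 2.04, its difference relative to Cd8a (1.30) from 1.05 to 1.55 and that of Klrd1 (-0.03) from -0.13 to 0.07. The reference genes were chosen after seeing the data: with Cd8b1 the difference of Klrd1 was 0.17, and that of Klrg1 lay between 1.20 and 1.49 over the 3 references tried.

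The number of genes called by limma was 0, but 135 without IgG replicate 1 and 2251 without IgG replicate 2, and 0 without either anti-SIGLEC15 library. Without an IgG library the error rests on the anti-SIGLEC15 pair (r = 0.972 across genes), and without an anti-SIGLEC15 library on the IgG pair (r = 0.884), and the lone library is taken to vary likewise. The count of members higher in both anti-SIGLEC15 libraries was 4, and ran from 4 to 10 with a library left out: 10 without IgG replicate 2 and 7 without anti-SIGLEC15 replicate 1. With the replicate block, limma called 0 genes and the difference of Klrg1 was 1.61; same-numbered libraries deviated together at r = 0.33 across genes, and with 2 pairs this does not show that the numbers pair the samples. Klrc3, Klrb1c, Klri1, Ncr1 and Il13 rest on few reads.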

Other observations

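The remaining Klrb1 family genes, relatives of NK1.1, were low in these cells. Klrb1a, Klrb1b, Klrb1f and Klrb1 each stayed at or under 1.59 RPKM in every library and did not pass the filter. The treatments overlapped for each of them. Clec2d, which encodes a ligand of an inhibitory Klrb1 receptor and is expressed by lymphocytes, lay higher in both anti-SIGLEC15 libraries, as did its relative Clec2i. In the order IgG 1, IgG 2, anti-SIGLEC15 1 and anti-SIGLEC15 2, Clec2d measured 13.4, 25.5, 47.2 and 32.2 RPKM. Clec2i measured 1.14, 6.45, 9.16 and 7.19 RPKM. They were 2 of 3 tested genes of the list, with 0 lower, beside 12.1% and 6.02% of all tested genes. Relative to Cd8a, Clec2i stayed apart and Clec2d overlapped. Clec2f was highest in IgG replicate 1 (20.9, 3.43, 9.31 and 6.35 RPKM). These genes were picked from a list of 10 after their values were seen.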
